A study of Caenorhabditis elegans with 2 samples.

Results

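Of the 10489 regions in the pooled list from a CEH-9 ChIP-seq experiment in Caenorhabditis elegans, 1168 (11.1%, exact 95% interval 10.5 to 11.8) held a long purine run at their summit. A region was counted when the window from 100 bases before to 100 after its summit, the position of its strongest signal, held at least 15 consecutive purines (A or G) on either strand of the WBcel235 genome. These 1168 regions are called the members, and the other 9321 regions are the comparison. Of the measured values only the summit's position entered the rule; signal height, replicate support and gene content did not.

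The experiment had 1 group of 2 biological replicates, numbered 1 and 3, from whole L3 larvae of both sexes. The strain, OP202, has the genotype unc-119(ed3) III; wgIs202, and its transgene expresses CEH-9 with a GFP-FLAG tag at the C terminus, so both libraries share the unc-119 mutation and the transgene. The chromatin was sonicated, the antibody field names ceh-9, and 1 free-text field calls both libraries input; this conflict in the labels was not resolved. Signal came from whole animals, so a weak signal in many cells and a strong signal in few cannot be told apart.

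Homeodomain proteins are transcription factors that typically read short AT-rich words built around TAAT, and a run of purines is not such a word. In nematodes, runs of T lie upstream of many coding starts, and runs of A disfavour nucleosomes. Alternating GA repeats are bound by GAGA-type factors in flies, and mirror-symmetric purine tracts can fold into triplex DNA in the test tube.

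The sequences below were read from RefSeq WBcel235 on the strand that carries the purines, 5′ to 3′, with the complete run in capitals and 20 bases on either side. The first 7 come from the 8 strongest members and are given because they show the range of runs under the highest signals. The 2 after them are among the longest runs. The last 3 are a run of A alone, a run with consecutive G and the run of the weakest member. Each is labelled with the gene whose annotated start is nearest, which identifies the region and assigns it no target.
K03A1.9 (chrX:7285000-7285074, plus strand): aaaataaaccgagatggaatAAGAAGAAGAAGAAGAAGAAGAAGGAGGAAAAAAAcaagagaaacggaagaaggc
WBGene00023111 (chrX:3036073-3036127, plus strand): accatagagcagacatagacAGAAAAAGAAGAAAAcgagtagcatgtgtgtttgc
T10B10.11 (chrX:15189407-15189478, plus strand): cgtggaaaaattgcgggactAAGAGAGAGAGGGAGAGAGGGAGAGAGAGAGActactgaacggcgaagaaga
cel-mir-53 (chrIV:11027689-11027745, plus strand): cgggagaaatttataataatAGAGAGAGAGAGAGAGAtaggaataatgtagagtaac
sqv-6 (chrV:966398-966460, plus strand): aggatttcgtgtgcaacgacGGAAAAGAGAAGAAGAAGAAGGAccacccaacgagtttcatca
zfp-1 (chrIII:8802203-8802258, plus strand): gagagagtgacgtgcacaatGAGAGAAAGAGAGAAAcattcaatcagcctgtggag
pdk-1 (chrX:1323143-1323202, plus strand): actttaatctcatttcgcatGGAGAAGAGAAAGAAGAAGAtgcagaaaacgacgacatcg
Y50D4C.10 (chrV:979882-980008, minus strand): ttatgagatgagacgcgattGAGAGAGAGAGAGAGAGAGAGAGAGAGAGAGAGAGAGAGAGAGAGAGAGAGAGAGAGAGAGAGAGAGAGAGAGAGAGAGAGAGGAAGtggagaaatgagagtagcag
T13F3.6 (chrV:16272109-16272222, plus strand): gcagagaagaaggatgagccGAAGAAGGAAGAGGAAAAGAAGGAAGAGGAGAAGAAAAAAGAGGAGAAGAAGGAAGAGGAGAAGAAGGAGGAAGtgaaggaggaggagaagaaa
Y111B2A.36 (chrIII:12729759-12729813, minus strand): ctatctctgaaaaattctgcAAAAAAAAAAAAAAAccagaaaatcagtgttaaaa
egl-21 (chrIV:10481885-10481941, plus strand): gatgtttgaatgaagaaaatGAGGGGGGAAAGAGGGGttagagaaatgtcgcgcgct
syd-1 (chrII:7588303-7588358, minus strand): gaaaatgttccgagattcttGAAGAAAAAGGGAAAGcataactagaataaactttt

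The runs were mostly short mixtures of A and G. Their median length inside the window was 17 bases (interquartile range 16 to 20) and the longest was 97, at a region whose nearest annotated start belongs to afd-1. G made up 40% of the median run (interquartile range 28.6 to 47.8). Only 3 runs were all A and 6 all G. The window held 1 run in 989 members, 2 in 154 and 3 or more in 25, and 46 longest runs reached past the window's edge. The longest runs of the members comprised 1148 different sequences, and no sequence was shared by more than 3 members. Purines were on the plus strand in 595 members (50.9%).

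Runs were more frequent at summits than in the genome or beside the same summits. Among 498866 non-overlapping windows of that size of the 6 nuclear chromosomes, 6.84% held a run. Windows centred 500 bases to the left of the pooled summits held a run in 6.96% and windows 500 bases to the right in 7.10%, against 11.1% at the summits. None of these shares was weighted for GC content. Seen from the genome, 1375 of 40167 runs (3.42%) lay at a pooled summit. The members were spread over all 6 chromosomes, from 8.46% of regions on V to 12.9% on IV, with 263 members (12.7%) on X. Intervals here and below cover counting error only, and 8 members had windows that overlapped another's.

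The members ranked higher in signal than the other regions. Signal is the caller's value for a region; it has no stated unit and is used as a percentile of the pooled list, with 100 for the strongest. Members ran from 11.8 to 39.6 in signal with a median of 14.7 (interval 14.4 to 14.9), and the others from 11.8 to 72.9 with a median of 14.1. The median percentile was 58.1 (54.7 to 61.2) for members and 49.0 (48.04 to 50.04) for the others. The 2 distributions overlapped over most of their range, and members also had more GC, with a median of 41.3% against 39.3%. When the others were weighted to the members' chromosomes and GC content, in bins of 2 percentage points, mean percentiles were 56.1 and 50.5, a difference of 5.60 points (3.82 to 7.37). It was 2.30 without replicate 1 and 3.70 without replicate 3, each on the other's own list. By chromosome the difference ran from 3.06 on I (-1.22 to 7.35) to 7.76 on III, above 0 on all 6, with intervals that included 0 on I and II.

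The difference was widest near the top of the list, although 0 of the 10 strongest regions were members. Of the 1049 regions in the strongest 10%, 195 were members, which is 16.7% of members (14.6 to 19) against a background of 10% of all regions and 10.2% of the weighted comparison. The difference was 6.40 points (4.19 to 8.61); without replicate 1, on the list of replicate 3, it was 3.09 (1.71 to 4.46). In finer classes a run was present in 14 of the 45 strongest regions (31.1%, 18.2 to 46.6), in 39 of ranks 46 to 200 (25.2%), in 57 of the next 300 (19%), in 15% of ranks 501 to 1000 and in 13.2% of ranks 1001 to 2000. The share was lower in each further class, down to 8.68% (7.60 to 9.85) for ranks 8001 to 10489, still above the 6.84% of genome windows. These class shares and the genome share were not weighted for GC content. Its median was 44.3% in the 45 strongest regions and 38.8% in ranks 8001 to 10489. The ordering by class was a description and was not tested.

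**Figure D1:**
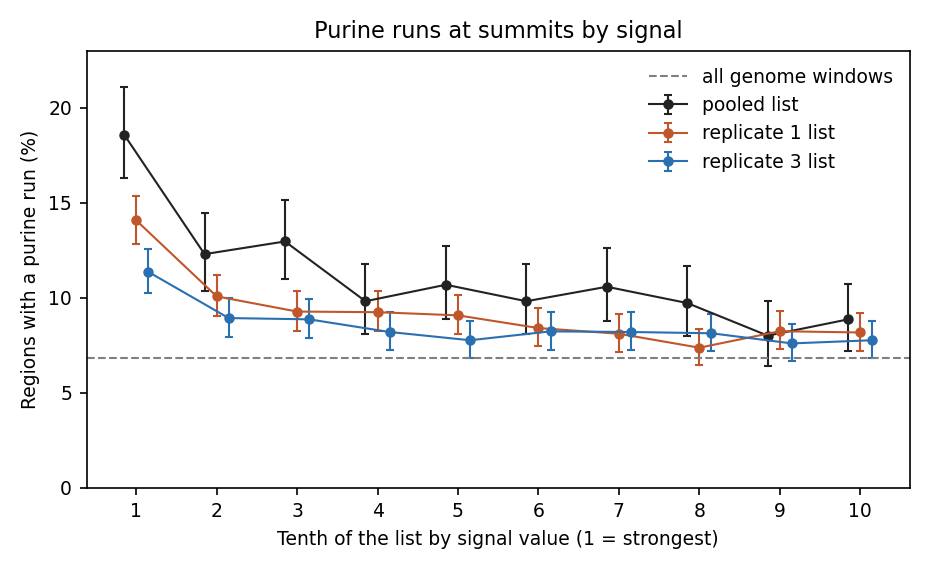
Percentage of regions with a purine run at the summit (vertical axis) in each 10% of the pooled, replicate 1 and replicate 3 lists, strongest first, with exact 95% intervals; the dashed line is the 6.84% of all genome windows. The pooled list starts at 18.6% and the replicate lists at 14.1% and 11.4%, and each is lower in its weaker classes. Shares are not weighted for GC content.

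Runs gathered around the strong summits over a broad stretch. Among regions of ranks 1 to 500, 2.37% of bases in the 50 bases left of the summit and 3.05% in the 50 bases right of it lay inside a purine run, against 0.727% of the genome. For regions ranked below 5000 the same bins held 1.08% and 1.06%. The shares by bin were not weighted for GC content. Bins beyond about 500 bases scattered around the genome value in every class, with single bins of the 500 strongest regions as high as 1.35%. Within the members, the centre of the run lay a median of 48.5 bases from the summit (45.5 to 51.0), and 52.1% lay within 50 bases. This is about the middle of the distances that the window allows. The median was alike across ranks, at 49 bases for ranks 1 to 500 and 49.5 for ranks 2001 and lower.

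**Figure D2:**
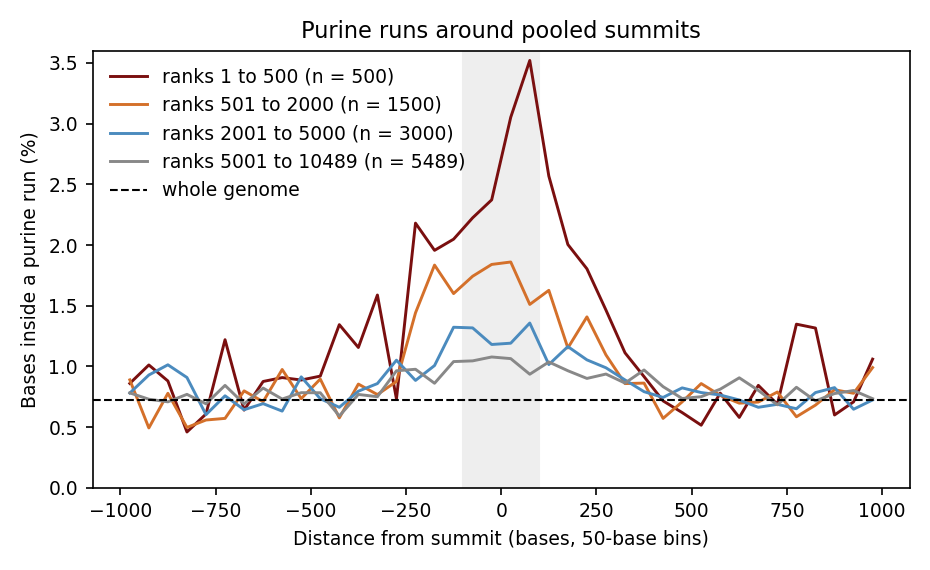
Percentage of bases inside a purine run (vertical axis) by distance from the pooled summit in 50-base bins, for 4 rank classes, with the window used to choose members shaded and the genome value of 0.727% dashed. Inside the shaded window the curves follow the order of the rank classes, with the 500 strongest regions on top; outside it they cross.

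Longer runs mostly went with higher ranks, but the rise was not even and the threshold itself marked no step up. Just outside the rule, the 355 regions whose longest run had 14 purines had a median percentile of 57.5 (50.9 to 62.1). Just inside it, the 241 members with runs of 15 had 51.4 (44.3 to 59.0). Set against regions with no run of 12 and weighted as above, the mean percentile of members with 15 purines differed by 0.38 (-3.32 to 4.09). Outside the rule it differed by more, by 1.70 (-0.19 to 3.59) at 12 to 13 purines and 4.36 (1.14 to 7.58) at 14. For longer runs the difference was 6.55 (3.43 to 9.67) at 16 to 17 purines, 5.51 (1.49 to 9.52) at 18 to 19, 8.39 (4.80 to 12) at 20 to 24, 13.3 (5.89 to 20.6) at 25 to 29 and 8.88 (-0.26 to 18.0) at 30 or more. Of the 65 members with 25 to 29 purines, 20 (30.8%, 19.9 to 43.4) were in the strongest 10%.

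**Figure D3:**
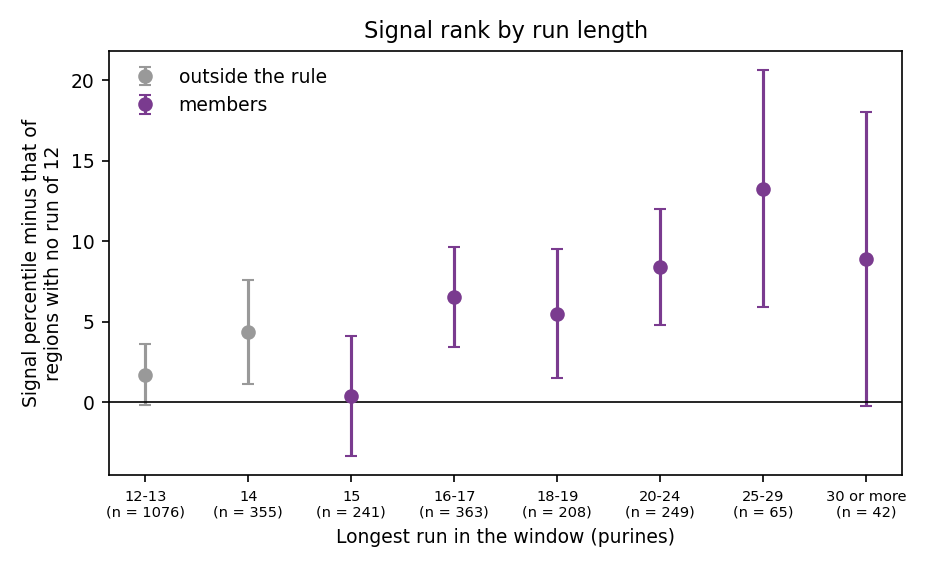
Mean signal percentile of regions by the length of their longest purine run, minus that of regions with no run of 12 weighted to the same chromosomes and GC (vertical axis, percentile points, 95% intervals). Points outside the rule stand at 1.70 for 12 to 13 purines and 4.36 for 14. Points of members sit near 0 at 15 purines and between 5.51 and 13.3 from 16 purines upward, and the interval at 30 or more includes 0.

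Support by the 2 libraries was unequal. A region counted as supported when a summit among the 3000 strongest of a replicate's own list lay within 200 bases; the pooled list was called on the same libraries, so support does not stand apart from it. In replicate 1, 333 members (28.5%, 25.9 to 31.2) were supported, against 20.3% of all regions and 19.2% of the weighted comparison, a difference of 9.22 points (6.52 to 11.9). It was 6.10 when the comparison was weighted for signal class as well, an alternative chosen after seeing the data, and 5.57 with runs of at least 12 purines. In replicate 3, 238 members (20.4%, 18.1 to 22.8) were supported, against 17.5% of all regions and 18.5% of the weighted comparison, and the interval of the difference, 1.86 points (-0.63 to 4.36), included 0. Both replicates supported 46 members (3.94%, 2.90 to 5.22), against 1.8% of all regions, with a weighted difference of 2.11 points (0.94 to 3.27). Neither supported 643 members (55.1%), against 64.1% of the weighted comparison, a difference of -8.98 points (-12 to -5.95).

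Strong regions of both kinds had more support in replicate 1 than in replicate 3. Of the 110 members in ranks 1 to 500, 86 (78.2%) were supported by replicate 1, 50 (45.5%) by replicate 3 and 32 (29.1%) by both. The 390 other regions of those ranks had 71.5%, 44.6% and 24.4%, with intervals that overlapped those of the members, so no excess of members was resolved in this class. In ranks 501 to 2000, replicate 1 supported 50.2% of members (43.2 to 57.2) and 36.2% of the others (33.6 to 38.9), while replicate 3 supported 29% of each.

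Each replicate's own list, searched in the same way, gave a difference of the same direction. Replicate 1 had 2759 nuclear regions with a run of 29970 (9.21%), whose mean percentile was 3.70 points (2.55 to 4.86) above that of weighted regions without one. Replicate 3 had 2552 of 30000 (8.51%) and a difference of 2.30 points (1.11 to 3.48). The lists differed in the authors' q-values: below 0.05 there were 3021 nuclear regions in replicate 1, 424 of them with a run, but only 24 in replicate 3, 4 of them with a run. Both were called against the same control alignment. The part of that control, of depth and of how uniquely reads map to runs was not tested, and 52.2% of the members' runs were wholly soft-masked as repeats in the genome sequence, against 59.8% of all genome runs.

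In the authors' reproducible set of 45 peaks, which passed their irreproducible discovery rate threshold, 14 were members. They are the same 14 members as among the 45 strongest regions above, so this is not a separate result. Where a replicate 3 summit lay within 200 bases, its rank ran from 7 at WBGene00023111 to 15348 at K03A1.9. That is 1.20% of members (0.66 to 2.0) against 0.429% of all pooled regions. A pooled q-value under 0.05 was given to 9 members (0.771%), against 0.267% of all regions. With so few regions, the weighted difference was 0.77 points (0.12 to 1.42) for the set and 0.50 (-0.03 to 1.02) for the q-value.

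The strongest member, rank 11 of the pooled list, lay between genes on X, 1915 bases upstream of the non-coding RNA K03A1.9. Its signal was 39.6 in the pooled list, 29.1 in replicate 1 and 6.16 in replicate 3, where it ranked 15348. The member beside the tRNA gene WBGene00023111 was the reverse, with 38.3 in the pooled list, 14.6 in replicate 1 and 21.6 in replicate 3, where it ranked 7. Its summit lay between that tRNA gene and the oppositely transcribed tRNA gene WBGene00023110, inside the non-coding RNA M02F4.12, while the region spanned all 3 genes.

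Among the 25 strongest members, most ranked higher in replicate 1 than in replicate 3. Signal values of the 3 lists were scaled separately, so values across lists are given side by side and only ranks are compared. At cel-mir-53, which encodes a microRNA of the mir-51 family, the pooled signal was 37.2, replicate 1 had 30.6 and replicate 3 had 6.48. T10B10.11, a non-coding RNA gene with a GA-rich run of 32 purines, had 37.7, 22.9 and 10.2 in the same order. A summit of replicate 1 lay within 200 bases of all 25, at a median rank of 105 in its list, and a summit of replicate 3 lay near 21, at a median rank of 2240. Of the 21 with a summit in both lists, 16 had the better rank in replicate 1. Among the 75 other regions of the 100 strongest it was 46 of 67, so both kinds of region leaned to replicate 1.

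The protein-coding genes nearest to the strongest members had varied roles. sqv-6 encodes the xylosyltransferase that starts glycosaminoglycan chains; its member lay 1554 bases upstream and had 34.9 in the pooled list, 15.2 in replicate 1 and 10.9 in replicate 3. An intron of zfp-1, the AF10-like chromatin regulator, held a member of 34.3, with 18.5 and 10.01 in the replicates. Another member inside zfp-1, nearest to the annotated start of F54F2.6, had 32.2, 18.2 and 18.6, at rank 154 of replicate 1 and rank 23 of replicate 3.

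Signalling and transcription genes followed. pdk-1 encodes the kinase that acts upstream of AKT in insulin signalling, and its intronic member had 33.4 in the pooled list, 22.5 in replicate 1 and 10.3 in replicate 3. At nhr-49, a nuclear hormone receptor of fat metabolism, the member lay 281 bases upstream with 31.7, 19 and 11.1. The member 186 bases upstream of the synaptotagmin gene snt-4 had 31.4, 9.20 and 19.7, and ranked 4113 in replicate 1 but 13 in replicate 3. Members near abts-3, an anion transporter gene, bet-2, a BET family bromodomain gene, mvk-1, the mevalonate kinase gene, and saeg-1, which acts with the kinase EGL-4, had pooled signals of 29.9, 29.4, 28.8 and 27.5.

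**Figure D4:**
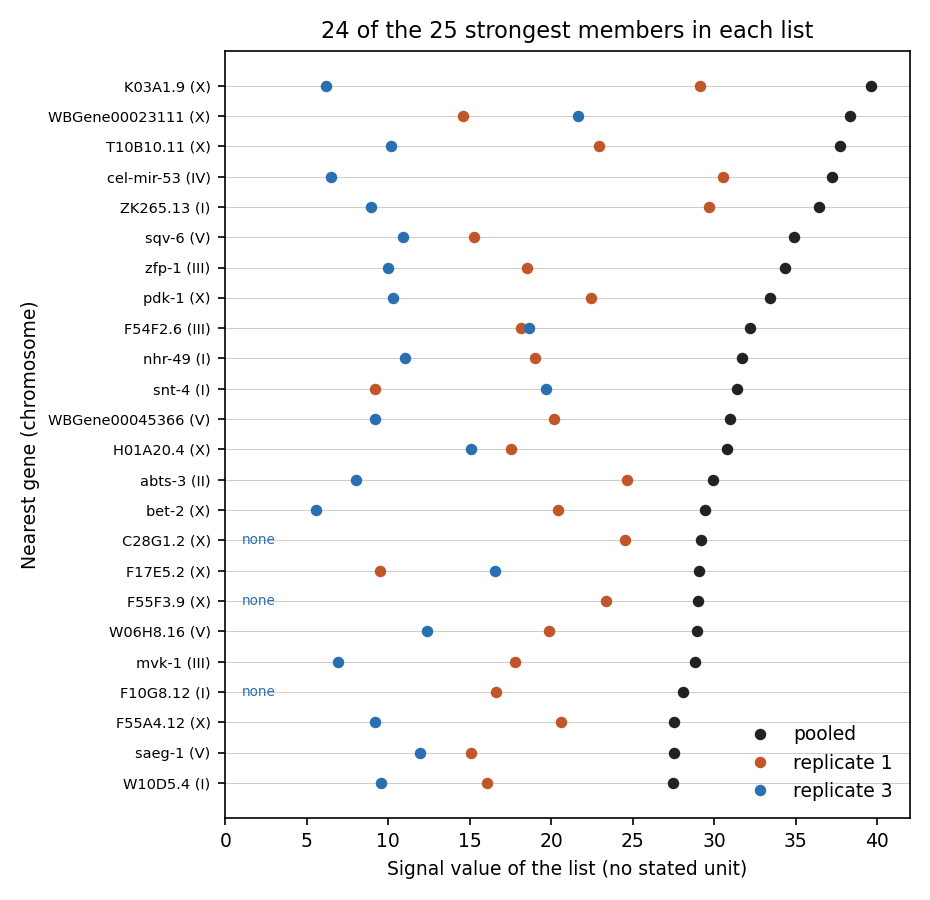
Signal value of 24 of the 25 strongest members in the pooled list, in replicate 1 and in replicate 3 (horizontal axis, no stated unit), each named by its nearest annotated start, with "none" where replicate 3 had no summit within 200 bases. Pooled values run from 27.4 to 39.6, replicate 1 from 9.20 to 30.6 and replicate 3 from 5.57 to 21.6.

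Other members among the 25 strongest were nearest to C28G1.2, F17E5.2, F55F3.9, F55A4.12 and H01A20.4 on X, W06H8.16 and the pseudogene WBGene00045366 on V, and ZK265.13, F10G8.12 and W10D5.4 on I. No replicate 3 summit lay within 200 bases of 4 of the 25, those at C28G1.2, F55F3.9 and F10G8.12 among them. Of the 25, 11 were on X, 16 in a promoter window and 12 nearest to a protein-coding gene. Of the 75 other regions among the 100 strongest, 26, 43 and 34 were.

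The longest runs were not at the strongest regions. Lengths here are those inside the window; the longest run counted beyond it had 135 bases, 18 of them in the window, at a region near nhr-45 with a signal of 12.6 and rank 8570. The run of 97 purines nearest to afd-1, which encodes afadin, had a signal of 18.8 and rank 1104. The run of 87 at the non-coding RNA Y50D4C.10, almost all GA repeats, had 14.2 and rank 5079, and that of 86 at B0244.14 had 13.1 and rank 7349. A region with a window run of 63 and its summit in a coding exon had 15.5 and rank 3301. Its nearest annotated start, 870 bases away with the summit upstream, belongs to T13F3.6. The other 6 of the 10 longest, of 41 to 57 purines, were near smd-1, the S-adenosylmethionine decarboxylase gene of polyamine synthesis, F21F12.2, B0348.9, Y24D9A.6, C30F12.2 and linc-143, and ranked from 583 to 8325.

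Composition within the runs went with rank in part. GAGAGA stood in the run of 240 members, whose median percentile was 68.6 (60.2 to 75.5), and 61 of them (25.4%, 20.03 to 31.4) were in the strongest 10%. AAAAAA stood in 324 runs, with 51.5 (47.0 to 59.1) and 37 members (11.4%, 8.17 to 15.4). GAAGAA, in 342 runs, had 55.1, GGAGGA, in 126 runs, had 70.2, and GGGGGG, in 59 runs, had 53.9. A run can hold several of these words. Of the 14 members in the reproducible set, 7 held GAGAGA, 6 GAAGAA, 3 GGAGGA, 1 AAAAAA and 0 GGGGGG. Over all members the shares with these words were 20.5%, 29.3%, 10.8%, 27.7% and 5.05% in the same order. The counts among the 14 are small and were not tested.

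The members with these words also differed in GC content. They were therefore compared with the members lacking the word, weighted for chromosome and GC. Run length, which also went with rank, was not part of this weighting. These differences are of mean percentiles, so their sizes are not set against the medians above. GAGAGA members exceeded the other members by 3.56 percentile points (-1.19 to 8.30), an interval that includes 0, by 7.72 points in their share of the strongest 10% (1.22 to 14.2), by 8.03 points in replicate 1 support (0.53 to 15.5) and by 2.52 in replicate 3 support (-4.23 to 9.26). GGGGGG members differed from the others by -9.09 percentile points (-16.7 to -1.50) and by -14.4 points in replicate 1 support (-25.4 to -3.41). GGAGGA members differed by 2.92 percentile points (-3.21 to 9.05) and GAAGAA members by -0.43 (-4.27 to 3.42). AAAAAA members differed by -0.84 (-4.85 to 3.16), and runs with over 30% G by 1.51 from those with less (-2.70 to 5.71). Without X the last difference was 5.53 (0.59 to 10.5). In promoter share, GAAGAA members differed by -8.48 points (-15.1 to -1.82) and AAAAAA members by 8.58 (1.48 to 15.7). The promoter intervals of the other contrasts included 0. These 6 contrasts on several measures were not adjusted for their number.

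Counted from the genome, runs with GAGAGA lay at pooled summits more often than runs with AAAAAA, as did runs with other words that hold G. Of 6190 genome runs with GAGAGA, 4.77% (4.25 to 5.33) lay at a pooled summit and 1.29% (1.03 to 1.61) at the strongest 1000. Of 15514 runs with AAAAAA the shares were 2.39% (2.16 to 2.64) and 0.277% (0.201 to 0.373). The order was the same at the 3000 strongest summits of each library: 2.18% against 0.877% in replicate 1 and 1.37% against 0.670% in replicate 3. The share at pooled summits was not particular to GAGAGA: it was 4.65% (3.93 to 5.46) for GGAGGA and 4.03% for GAAGAA. For GGGGGG it was 2.89% and for all runs with over 30% G 4.25%. Runs of at most 10% G were the lowest, with 1.29% at pooled summits. These shares were not weighted for GC content.

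Homeodomain-type words were less frequent at members. TAATTA or TAATTG, on either strand, stood in the windows of 143 members (12.2%, 10.4 to 14.3) against 16.7% of weighted regions without a run, a difference of -4.46 points (-6.49 to -2.43). All pooled regions had 18.3%. Words of other kinds gave the same direction, -4.98 (-6.81 to -3.14) for the GATA-type word TGATAA and -3.11 (-4.96 to -1.26) for AATATT. None of these words can lie inside a purine run, which leaves members fewer bases to hold them. How far this accounts for the differences was not tested. Among the 110 members in ranks 1 to 500, 5 held TAATTA or TAATTG, 6 held TGATAA (15.1% of all pooled regions) and 4 held AATATT (15.6%). These counts were not weighted for GC content, which had a median of 43.0% in the 500 strongest regions and 39.8% in all. No count for the other regions of these ranks is given here, so the counts do not show whether strong members differ from them. A match is a stretch of letters and says nothing of binding.

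Members lay outside coding exons far more than other regions. A coding exon held the summit of 141 members (12.1%, 10.3 to 14.1) against 38.3% of the weighted comparison, a difference of -26.2 points (-28.4 to -24.04). Intergenic summits made up 42.4% against 25.6%, introns 30.4% against 26.9%, and exons of non-coding genes 8.65% against 5.45%. Of all 40167 genome runs, 13.9% had their midpoint in coding exons, 41.6% between genes and 31.5% in introns, so in these 3 classes the members were closer to the genome's runs than to the other regions. In exons of non-coding genes they were not, as 4.45% of genome runs lay there.

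**Figure D5:**
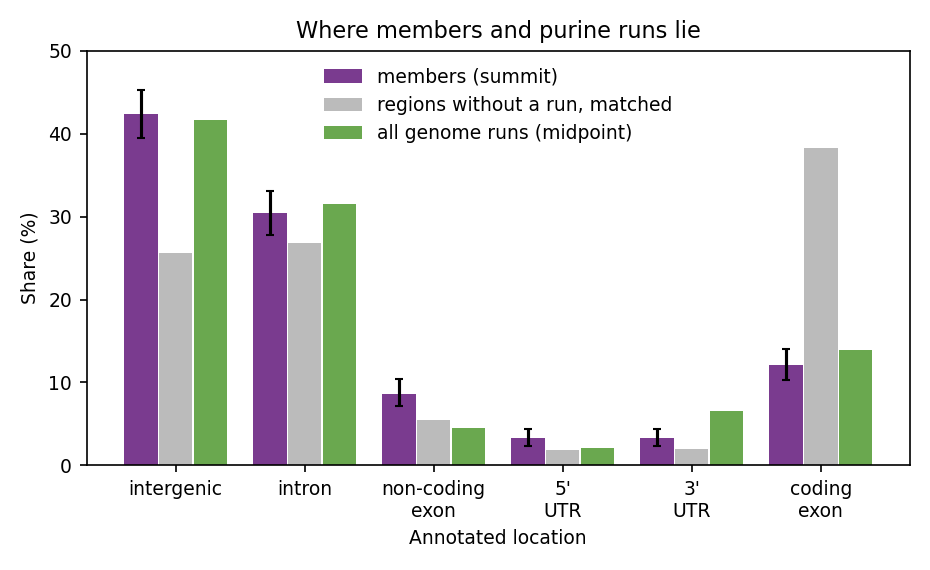
Share of summits of members (exact 95% intervals), of regions without a run weighted to the members' chromosomes and GC, and of midpoints of all genome runs (vertical axis, percent) by annotated location. Members and genome runs stand at 12.1% and 13.9% in coding exons, where the regions without a run stand at 38.3%.

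The rank difference was not the same in every location. Between genes, members exceeded weighted regions without a run by 5.40 percentile points (2.48 to 8.32) and in introns by 6.03 (2.70 to 9.37). In coding exons the difference was -1.01 (-5.72 to 3.70) and in non-coding exons and UTRs together 2.47 (-2.27 to 7.21). The gap between introns and coding exons was 7.05 points (1.28 to 12.8) and that between intergenic sequence and coding exons 6.41 (0.87 to 12). Genome runs in coding exons lay at the strongest 1000 pooled summits in 0.126% of cases, against 0.742% between genes and 1.85% in exons of non-coding genes.

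A promoter window, from 1000 bases upstream to 200 downstream of any annotated transcript start, held 583 member summits (49.9%, 47.0 to 52.8). This compares with 41% of all pooled regions and 40.1% of the weighted comparison, a difference of 9.70 points (6.64 to 12.8). With starts of protein-coding transcripts alone, 379 members (32.4%) were counted and the difference was 5.39 (2.52 to 8.27). Of all genome runs, 45.1% (44.6 to 45.5) had their midpoint in a promoter window, a share between that of members and that of the comparison. The excess was widest on V and X, with 16.1 points (8.29 to 24) and 22.2 points (15.8 to 28.6), while on the other chromosomes it was between 1.35 and 4.90 with intervals that included 0. For members with runs of 20 or more purines it was 4.35 (-0.56 to 9.25). The rank difference did not divide by promoter: it was 5.32 (2.70 to 7.93) inside these windows and 5.34 (2.90 to 7.78) outside.

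The strand of the purines followed genes in the same way as in the genome at large. In coding exons, purines were on the sense strand in 106 of 123 members (86.2%, 78.8 to 91.7) and in 89.1% of genome runs. In introns the sense strand carried them in 141 of 352 (40.1%) against 41.2%. In promoter windows upstream of the nearest coding start it was 66 of 248 (26.6%, 21.2 to 32.6) against 27.7%, so the sense strand mostly read as pyrimidines there.

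Genes of several classes had members in their promoter windows. Among 3065 protein-coding genes with any pooled region in such a window, 407 had a member, the 13.3% that is the background for the lists that follow; over all 5927 annotated genes of any class with a region it was 868 (14.6%). Non-coding RNA genes outside the named classes had a member in 289 of 1387 (20.8%, 18.7 to 23.1), above both shares. These were 233 distinct members, so this interval over genes is too narrow. For miRNA genes it was 19 of 58 (32.8%, 21 to 46.3), but clustered genes shared regions, these were 10 distinct members, and the interval over genes is too narrow. The tRNA genes had 22 of 138 (15.9%), snoRNA genes 14 of 88 (15.9%), piRNA genes 97 of 957 (10.1%) at 37 distinct members, and snRNA genes 0 of 15. Besides cel-mir-53, the miRNA genes with the strongest members were cel-mir-62 (20.7), cel-mir-2 (16.7) and cel-mir-5547 (16.7).

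Among the other RNA genes, the tRNA genes WBGene00022947 and WBGene00000308 on X had members of 29.2 and 25.6. The snoRNA genes W06H8.17, F56A11.14 and F07A11.15 had 24.8, 24.6 and 23.3, and F54E7.11, which shares its member with rps-12, had 19.1. A member of signal 26 on IV lay in the windows of the piRNA genes 21ur-7330, 21ur-15640, 21ur-11187 and 21ur-11780, with 18.4 in replicate 1 and 15.4 in replicate 3.

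Regulatory genes gave small counts. Homeobox genes had a member in 5 of 15 with a region (33.3%, 11.8 to 61.6), an interval that includes the background. They were unc-42, a paired-like factor of interneuron identity, with a signal of 22.5, unc-62, the Meis/Homothorax-type cofactor, with 14.9, the ONECUT gene ceh-39 with 13.8, the POU gene ceh-6 with 13 and zfh-2 with 12.8. At unc-42 replicate 1 had 16.9 and replicate 3 had 5.35. Nuclear hormone receptors had 4 of 43, nhr-49, nhr-1 (19.2), nhr-3 (14.3) and nhr-40 (12.2). No GATA factor gene had a pooled region in a promoter window. Genes of chromatin and dosage compensation had 3 of 13: zfp-1, sdc-2, which directs the dosage compensation complex to X, with 18.9, and set-4, a histone H4 lysine methyltransferase gene, with 17.7. At unc-42, unc-62, zfh-2, nhr-1, nhr-40 and zfp-1 the member lay between the ends of the gene. The promoter windows concerned there belong to internal transcript starts.

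Housekeeping, structural and neuropeptide lists had few genes, with shares from 5.56% (heat shock) to 20% (histones and cytoskeleton). Their intervals were wide, and all included the background of 13.3%. Ribosomal protein genes had 3 of 21, rpl-24.2 (21.5), rps-12 (19.1) and rpl-2 (14.2), and translation factors 1 of 8, eif-1.A (12.2). The collagen and cuticle list had 4 of 26: the collagen genes bli-1 (16), col-168 (15.7) and col-147 (12.6), and dpy-22 (14.1), which by its name is on the list but encodes a Mediator subunit. Neuropeptide and insulin-like genes had 3 of 18, nlp-53 (17), nlp-41 (14.1) and nlp-24 (12.2). The heat shock list had 1 of 18, the DnaJ gene dnj-14 (26.4), the cytoskeleton list 1 of 5, the alpha-spectrin gene spc-1 (24.6), the histone list 1 of 5, the H3.3 gene his-72 (16), and the muscle list 1 of 9, the pharyngeal myosin gene myo-1 (12.2).

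At daf-16, the FOXO factor of insulin signalling, the signal was 25.6 in the pooled list, 10.4 in replicate 1 and 18.3 in replicate 3. The member ranked 2513 in replicate 1 and 26 in replicate 3. Of the 3 genes on this list with a region in a promoter window, daf-16 alone had a member there. The member of pdk-1, which is also on the list, lay outside such windows. The window concerned at daf-16 belongs to an internal transcript start, as its member lies between the ends of the gene.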

How the data were processed

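The members and gene lists were chosen with earlier results of these data known. Per the deposited descriptions, regions (peaks with background) were called by the authors for each replicate and for the pooled libraries against a control alignment, on build ce11, and a reproducible set was derived from them. What aligner, caller, scaling and threshold were used is not given in the sources used here. The deposited signal value of a region has no stated unit, and the deposited −log10 q-value was used only for the 0.05 threshold. Read depth was not analysed here, so precision rests on the number of regions.

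Every ce11 region ended within its WBcel235 chromosome, and gene annotation was Ensembl release 115. Lists on ce10 were not used. Runs were found with Python 3.11.15, numpy 2.4.6, pandas 2.3.3 and scipy 1.17.1, and figures drawn with matplotlib 3.10.9. Regions without a run were weighted to the members' counts in strata of chromosome and GC (2-point bins); 1166 of 1168 members had a stratum. The 95% intervals are exact (Clopper-Pearson) for shares, order-statistic for medians and normal for stratified differences; the weighting was tested on simulated data. No p-value was computed, as there is 1 group of 2 libraries. Named genes are the nearest starts (within 5000 bases, except at afd-1) of the 25 strongest members and the 10 longest runs, and up to 4 genes per list, strongest first. All 5 homeobox genes are named; zfh-2 and nhr-45 were added after their values were seen. Alternatives changed the run length, window, bins, promoter window and support rules, and left out X or a replicate. Of the 25 strongest, 1 member is counted but not reported singly here.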

Additional observations from a re-analysis of the deposited data

Results flagged for a closer look

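The replicate 1 list held 30 regions on the mitochondrial chromosome, which entered no comparison, and the replicate 3 list held 0. The highest mitochondrial signal value was 80.1. None of the 30 held a purine run of the required length at its summit. It was flagged as signal in data outside the comparisons; no control list was at hand to set it against.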

How the results depend on the processing

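The member count was 2599 with at least 12 purines, 356 with at least 20, 590 with a window of 50 bases either side and 9 with a q-value under 0.05. With at least 12 purines, the replicate 1 support difference was 5.57 points. With at least 20, the rank difference was 8.39, the difference in the strongest 10% was 9.89 and the promoter difference was 4.35, with an interval that included 0. The promoter difference was 6.08 without X and 5.39 with protein-coding starts only. Weighted also for signal class, an alternative chosen after seeing the data, replicate 1 support differed by 6.10 and replicate 3 support by 0.15. With each replicate left out, so on the other's own list, the rank difference lay between 2.30 and 3.70, the strongest-10% difference between 3.09 and 4.66 and the G-content difference between -1.14 and -0.57. The promoter difference, taken there over the 10489 strongest regions of the list, lay between 8.93 and 9.79. Weighting also for location, chosen after seeing the data, left a rank difference of 4.21 (2.33 to 6.08).

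Differences stayed above 0 under all 12 alternatives for rank, 16 for promoters and 15 for support in each replicate; for replicate 3 the interval excluded 0 under 2 of the 15. The G-content difference, whose interval included 0, was above 0 under 2 of 4 alternatives; without X it was 5.53. No paired analysis was possible because there is only 1 group. The 2 libraries without depth or control values limit each comparison to the regions listed; the cause of these shifts was not tested.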
